A study of Mus musculus with 6 samples.

Results

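Nitric oxide and cyclic GMP signalling in the mouse aorta was followed here through 10 genes: the 3 nitric oxide synthases (*Nos1*, *Nos2*, *Nos3*), the 2 main subunits of soluble guanylyl cyclase (*Gucy1a1*, *Gucy1b1*), the 3 natriuretic peptide receptors (*Npr1*, *Npr2*, *Npr3*), the cyclic GMP-dependent kinase *Prkg1* and the phosphodiesterase *Pde5a*. They were listed by name as parts of the pathway, with earlier results of these data known, and are 10 of the 55341 genes in the count table. RNA from the aortic arch and thoracic aorta of 3 miRNA-26b-/- mice (libraries K1, K2 and K3) and 3 miRNA-26b+/+ mice (W1, W2 and W3) was sequenced, 1 library per mouse, to ask how loss of the microRNA changes the vascular transcriptome. The mice were 8 weeks old and on a normal laboratory diet, and the labels give the strain C57BL/6NCrl for both groups. The miRNA-26b-/- animals lack a segment of 160 bp in an intron of *Ctdsp1* that encodes both arms of the microRNA. The allele was made in 129/Sv stem cells (R1/E), was deleted with tamoxifen in mice carrying CreERT2, whose promoter was not given in the sources used here, and CreERT2 was then bred out. Chimeras came from 2 stem cell clones and were crossed to C57BL/6.

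Each library held between 25706728 and 33345037 counts, and between 17744 and 19287 genes were detected. Endothelial cells are given as the cell type in the labels, whereas the summed level of 8 smooth muscle markers was 31482 to 42409 CPM (counts scaled to a common library size) and that of 10 endothelial markers 579 to 1863 CPM, so smooth muscle markers outweighed endothelial ones in every library. *Mir26b* had 0, 0 and 0 counts in K1 to K3 and 0, 20 and 0 in W1 to W3, too few for a check of genotype, and its host gene *Ctdsp1* had a log2 fold change of 0.20 (adjusted p = 0.866, edgeR's quasi-likelihood test). The labels carry no replicate numbers, and the numbers used here only name the mice.

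Nitric oxide is made from arginine by the synthases, chiefly by *Nos3* in the endothelium of arteries. It diffuses into the smooth muscle below, binds the heme of soluble guanylyl cyclase, a dimer of 1 alpha and 1 beta subunit, and raises cyclic GMP. Natriuretic peptides raise cyclic GMP by another route, through the membrane cyclases *Npr1* and *Npr2*, while *Npr3* mainly clears the peptides. Cyclic GMP activates the kinase encoded by *Prkg1*, which relaxes the muscle, and *Pde5a* ends the signal by hydrolysing the nucleotide.

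A microRNA of the 5p arm of miRNA-26b pairs with messenger RNAs mainly through its seed, bases 2 to 8. The sequences below (RefSeq, GRCm38.p6, seed in capitals) show that miR-26a-5p, which comes from other loci on chromosomes 9 and 10 and is left intact by the deletion, carries the seed UCAAGUA as well. The mature miR-26b-5p lies at chr1:74394324-74394344 on the forward strand.
mmu-miR-26b-5p: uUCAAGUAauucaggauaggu
mmu-miR-26a-5p: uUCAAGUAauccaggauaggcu

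The longest annotated 3′ UTR of each of the 10 genes was searched on its own strand for 8mers (TACTTGAA), for TACTTGA and for ACTTGAA, the 7-base matches being counted only outside an 8mer. These are matches to the seed of the 5p arm. The 3p arm, also lost with the deletion, has the seed CUGUUCU, and matches to it were not searched for. Of the 10 genes, 4 held 1 match each and 6 held none. Among all 21025 genes with a 3′ UTR, 18.3% held at least 1 match and 4.19% held an 8mer. Among the 13464 such genes that were tested, the shares were 21.4% and 4.92%. The 4 genes with a match had the longest 3′ UTRs of the 10, 4042 to 5281 bases, against 378 to 2268 bases in the other 6 and a median of 1205 bases in the tested genes. The sites are shown from the GRCm38 genome in the direction of the transcript, with the seed match in capitals, because these are the members whose 3′ UTR holds the seed match. They lie at chr3:122856044-122856071 on the forward strand (*Pde5a*), chr15:11845136-11845162 on the reverse strand (*Npr3*), chr19:30565583-30565609 on the reverse strand (*Prkg1*) and chr5:117955526-117955552 on the forward strand (*Nos1*).
Pde5a: agaaatgtttTACTTGAAgatctttctg
Npr3: tcgcttcgtcTACTTGAgattccttaa
Prkg1: gtccaagtagACTTGAAtggacgttac
Nos1: tagtgtttccTACTTGAtctcccatgc
A match is a run of letters and was not tested as a binding site. The genes with a match did not move one way: the log2 fold changes (miRNA-26b-/- against miRNA-26b+/+) were -0.25 for *Pde5a*, -0.44 for *Npr3* and 0.37 for *Prkg1*, none past the test, and *Nos1* was too low to test.

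*Npr1* and both cyclase subunits were the most abundant members, and *Nos1* was near the limit of detection. Per exon length, as CPM per kilobase of exon (RPKM, mean ± SD over all 6 libraries), *Npr1* stood highest at 86.1 ± 11.8, before *Gucy1b1* at 70.3 ± 10.4 and *Gucy1a1* at 47.1 ± 6.41. Each of these was above the next in 6 of 6 libraries. *Npr2* at 23.5 ± 4.82 RPKM and *Pde5a* at 23.0 ± 3.37 RPKM could not be ordered, as *Npr2* was the higher in 3 of 6 libraries. *Pde5a* was above *Nos3*, at 14.8 ± 7.36 RPKM, in 5 of 6 libraries, and *Nos3* was above *Prkg1*, at 8.24 ± 1.47 RPKM, in 4 of 6. *Npr3* followed at 3.87 ± 0.952 RPKM, then *Nos2* at 0.363 ± 0.256 RPKM and *Nos1* at 0.0222 ± 0.0275 RPKM. *Nos1* had 22 counts in K2 and 17 in W2, but 0 in K3 and in W3.

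**Figure D1:**
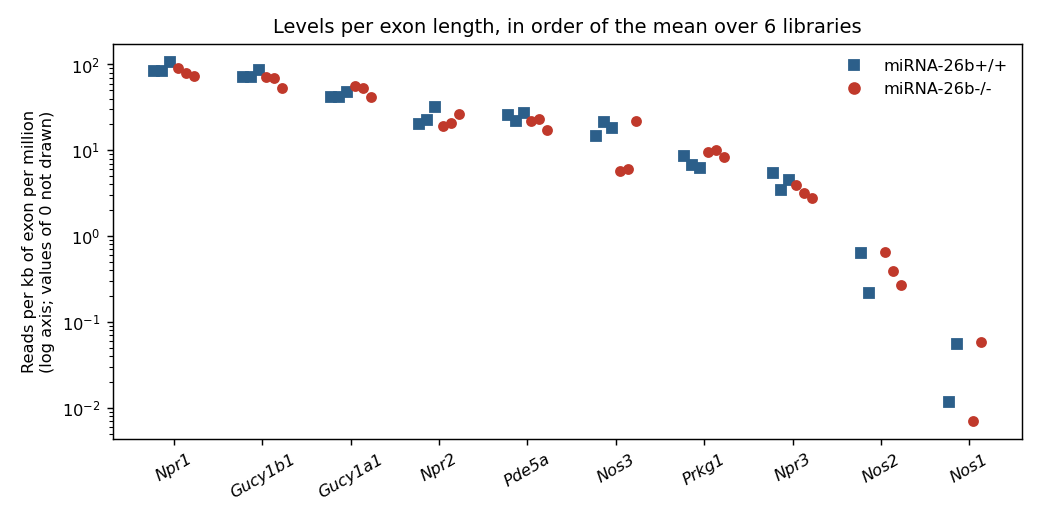
Level of each gene per exon length, in RPKM on a log axis, for the 3 miRNA-26b+/+ (squares) and the 3 miRNA-26b-/- libraries (circles), with genes in order of the mean over 6 libraries. *Npr1*, *Gucy1b1* and *Gucy1a1* lie at 41.3 to 107 RPKM, and *Nos2* and *Nos1* lie below 1 RPKM, with libraries at 0 not drawn.

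Of the 10 members, 9 passed the filter on few counts (over 1 CPM in at least 2 libraries) and were tested, and *Nos1* was not. None of the 9 reached an unadjusted p of 0.05 in edgeR's quasi-likelihood test, where 6.47% of the 16017 genes tested did (3.4% higher and 3.07% lower in miRNA-26b-/-), and none was called at an adjusted p of 0.05, where 0.00624% (1 gene) was. By sign alone, 3 log2 fold changes were above and 6 below 0, with a median of -0.19 against 0.013 over all genes tested. In 0 of the 10 genes did the CPM of the 2 groups lie apart without overlap, against 11.5% of the genes tested. With 3 mice against 3 an exact permutation test of 1 gene cannot give a p below 0.1. With 1 library per mouse and no library repeated, the p-values measure the spread between mice and between preparations together.

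**Figure D2:**
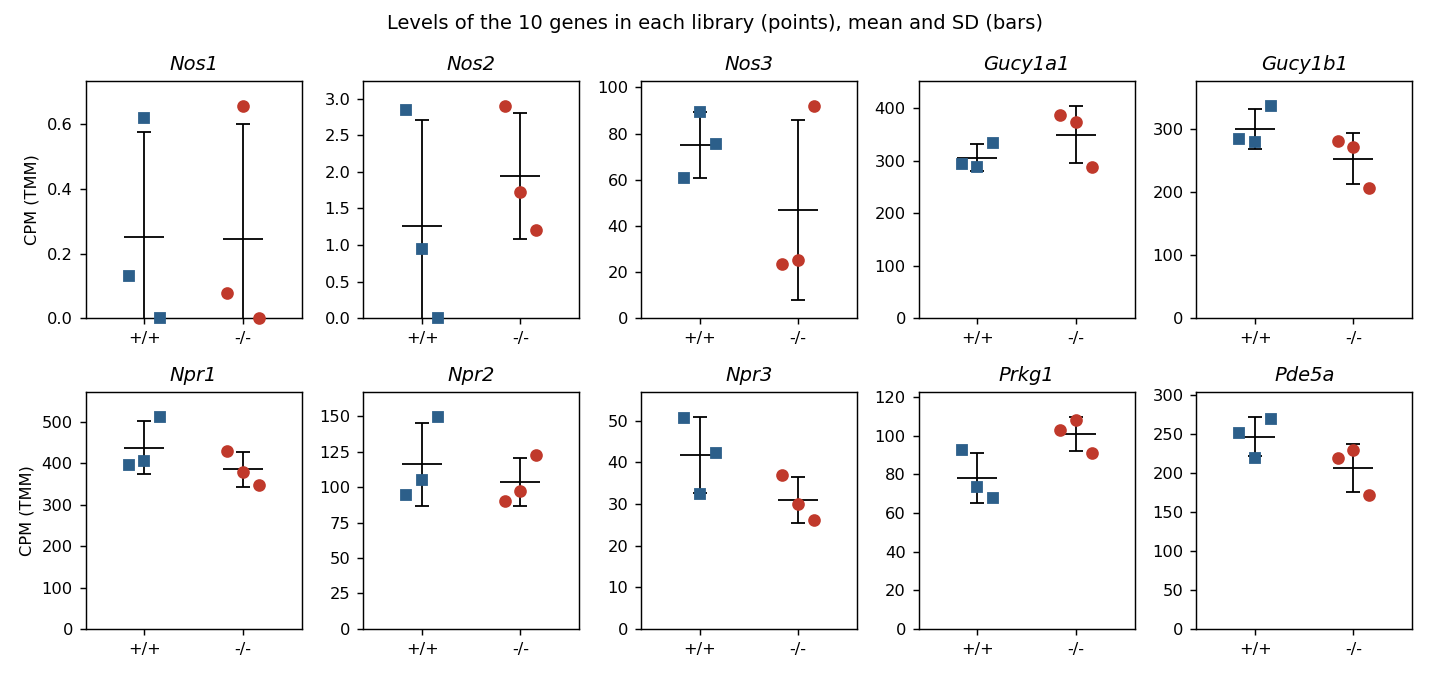
Level of the 10 genes in CPM (TMM-normalized, axes from 0) in each library, with the mean and SD of each group of 3 (SD bars are cut at 0). The groups overlap in all 10 panels, and the 3 miRNA-26b-/- values of *Nos3* are split, at 23.6, 25.2 and 91.7 CPM.

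Among the synthases, *Nos3* (endothelial nitric oxide synthase, ENSMUSG00000028978, chr5:24364810-24384474, forward strand) made up 89.6% to 100% of the summed synthase level per exon length. Its level was 23.6, 25.2 and 91.7 CPM in K1, K2 and K3, and 60.8, 89.1 and 75.3 CPM in W1, W2 and W3. K1 and K2 were the lowest of the 6 libraries and K3 the highest, so the miRNA-26b-/- mice spanned the range of the miRNA-26b+/+ mice on both sides. The group means were 46.9 ± 38.9 CPM and 75.1 ± 14.2 CPM (SD, n = 3 each), with a log2 fold change of -0.68 (SE 0.38, adjusted p = 0.801 by edgeR; exact permutation test, two-sided, p = 0.4).

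The split between K1 and K2 and the other libraries was also present in 5 of the 10 endothelial markers, in which K1 and K2 were the 2 lowest libraries, and not in the other 5 (*Kdr*, *Cldn5*, *Erg*, *Egfl7* and *Esam*). It was not particular to endothelial markers. K1 and K2 were also the 2 lowest libraries in 5 of 6 macrophage, 4 of 6 fibroblast and 1 of 8 smooth muscle markers. The sum of the 10 endothelial markers, all detected, was 579, 591 and 1863 CPM in K1 to K3 and 1309, 1773 and 1569 CPM in W1 to W3. Over the libraries the sum varied 3.22-fold and *Nos3* 3.89-fold, whereas the smooth muscle sum varied 1.35-fold. As a share of the endothelial sum, *Nos3* was 4.08%, 4.27% and 4.92% in K1 to K3 and 4.64%, 5.03% and 4.80% in W1 to W3, a range of 1.23-fold (4.42 ± 0.44% against 4.83 ± 0.19%, exact permutation test, two-sided, p = 0.3). *Pecam1* and *Vwf* alone made up 47.7% to 71.1% of that sum. The other 8 markers summed to 291, 309 and 543 CPM in K1 to K3 and 432, 539 and 453 CPM in W1 to W3, a range of 1.86-fold, and against this smaller sum, chosen after the values were seen, *Nos3* was 8.11%, 8.16% and 16.9% in K1 to K3 and 14.1%, 16.5% and 16.6% in W1 to W3. The share of *Nos3* varied 1.23-fold with *Pecam1* and *Vwf* in the sum and 2.08-fold without them. *Erg*, 1 of the 5 endothelial markers without the split, stood at 75.4, 59.3 and 98.0 CPM in K1 to K3 and 62.2, 67.2 and 79.5 CPM in W1 to W3. Why *Nos3* was low in K1 and K2 was not tested, and bulk tissue does not separate cell number from RNA per cell. K3 also had the highest sums of 6 fibroblast markers (8045 CPM against 4407 to 5494 CPM in the others) and of 6 macrophage markers (507 CPM against 159 to 336 CPM), and their part in the *Nos3* values was not tested.

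**Figure D3:**
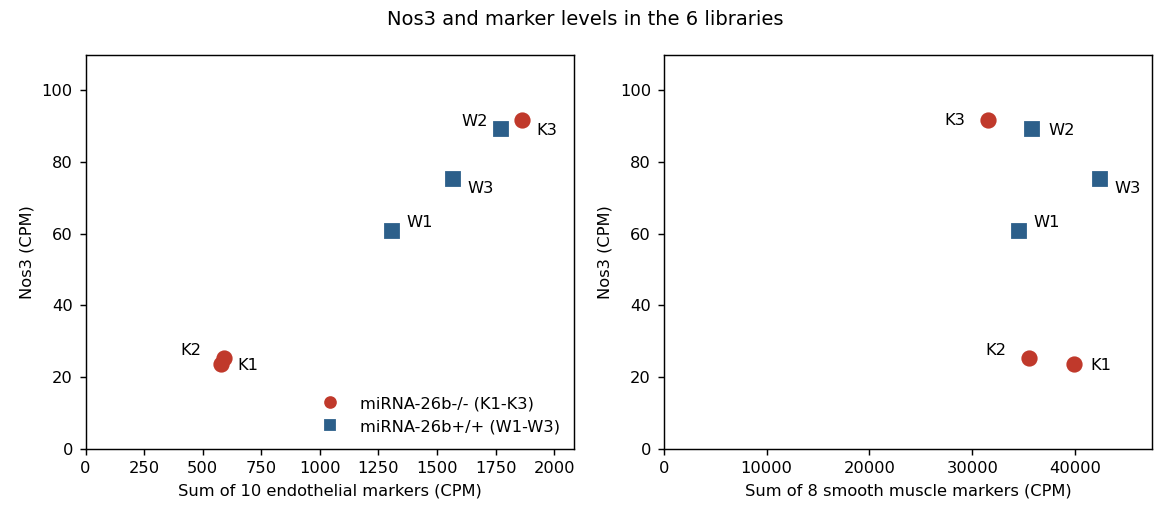
*Nos3* in CPM against the summed CPM of 10 endothelial markers (left) and of 8 smooth muscle markers (right), 1 point per library, circles for miRNA-26b-/- and squares for miRNA-26b+/+. K1 and K2 lie together at low *Nos3* and low endothelial sum, while K3 lies with the miRNA-26b+/+ libraries on the left and at the lowest smooth muscle sum on the right.

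Whether *Nos3* was called depended on K3. Without K3 its log2 fold change was -1.61 (SE 0.24, adjusted p = 0.00319 by edgeR) and it was 1 of 82 genes called, together with 3 of the 10 endothelial markers. Leaving out any other library gave -0.82 to -0.36 and no call. Of the 11680 genes with a mean of at least 5 CPM, those whose log2 CPM followed *Nos3* most closely over the 6 libraries were *Vwf* (von Willebrand factor, Pearson r = 0.998), *Stab1* (a scavenger receptor, r = 0.997) and *Pecam1* (the adhesion molecule CD31, r = 0.995). These points share the libraries, and *Vwf* and *Pecam1* are among the 10 markers. *Vwf*, for instance, stood at 103, 107 and 604 CPM in K1 to K3 and 390, 602 and 522 CPM in W1 to W3.

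Counting ignored strand, and reads on overlapping genes went to all of them. *Nos3* shares 1040 exon bases with the antisense gene *Gm15587*, which had 194, 353 and 921 counts in K1 to K3 and 800, 805 and 734 in W1 to W3, and 294 exon bases with *Atg9b* (51, 247 and 0, and 111, 328 and 102 counts). Their reads and those of *Nos3* (604, 847 and 2587, and 1863, 2446 and 2277 counts) cannot be told apart where the exons overlap.

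*Nos2* (the inducible synthase, ENSMUSG00000020826, chr11:78920787-78960254, forward strand) had 74, 58 and 34 counts in K1 to K3 and 87, 26 and 0 counts in W1 to W3. It was absent from W3 alone, where 0 counts allow up to 0.0993 CPM (3 counts, counting error only). The log2 fold change was 0.57 with an SE of 0.99 (adjusted p = 0.961 by edgeR), and it was -0.038 without W3 and 2.07 without W1. *Nos1* (the neuronal synthase, ENSMUSG00000029361, chr5:117781032-117958840, forward strand) had 2, 22 and 0 counts and 4, 17 and 0 counts. Its highest libraries, K2 and W2, were also the highest in the sum of 6 sympathetic neuron markers (250 and 50.7 CPM, against 7.62 to 23.0 CPM in the others) and of 6 cardiac muscle markers (376 and 320 CPM, against 19.2 to 76.8 CPM). The same held for 5 white adipocyte markers (1213 and 791 CPM, against 305 to 604 CPM) and 6 brown adipocyte markers (485 and 410 CPM, against 154 to 285 CPM). The part of these tissues in *Nos1* was not tested.

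Of the cyclase subunits, *Gucy1a1* (alpha, ENSMUSG00000033910) had the higher mean in miRNA-26b-/- and *Gucy1b1* (beta, ENSMUSG00000028005) the lower one, neither past the test. The genes lie next to each other on the reverse strand, at chr3:82092427-82145789 and chr3:82032006-82074689. *Gucy1a1* stood at 387, 375 and 288 CPM in K1 to K3 and 295, 288 and 335 CPM in W1 to W3, with a log2 fold change of 0.19 (SE 0.15, adjusted p = 0.871 by edgeR). *Gucy1b1* stood at 280, 271 and 207 CPM and 284, 280 and 335 CPM, with a log2 fold change of -0.25 (SE 0.15, adjusted p = 0.836). In both genes K3 was low within its group and W3 high within its group, so the levels of the subunits moved together within each group. The same held for *Npr1* and *Pde5a*, but not for the other members tested. It also held for the sum of the smooth muscle markers, at 31482 CPM in K3 and 42409 CPM in W3.

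Taken as a ratio within each library, which removes what the subunits share, the groups lay apart. *Gucy1a1* counts over *Gucy1b1* counts were 1.38, 1.38 and 1.40 in K1 to K3 and 1.04, 1.03 and 0.999 in W1 to W3. The means were 1.39 ± 0.00759 and 1.02 ± 0.0207 (SD, n = 3 each), a ratio 1.36-fold higher in miRNA-26b-/- (0.44 on the log2 scale), and the gap between the groups was 16.5 times the larger SD. The spread within miRNA-26b-/- (0.547%) was below the counting error of the ratio (1.72%), and that within miRNA-26b+/+ (2.03%) was near it. The exact permutation test (two-sided) gave p = 0.1, the smallest that 3 against 3 can give, and 0.45 after Benjamini-Hochberg adjustment over the 36 pairs of tested members. Leaving out any 1 library gave a ratio 1.34-fold to 1.37-fold higher. *Gucy1a1* and *Gucy1b1* do not overlap each other, and gene counts do not resolve their isoforms.

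The ratio was chosen after its values were seen, as the pair that stood furthest apart of the 36. The 2 groups did not overlap in 8 of the 36 pairs (22.2%). Set against *Gucy1b1*, 15.8% of 16016 other tested genes had ratios without overlap, *Gucy1a1* and *Prkg1* among the members. That share applies to the 2 of the 8 pairs that hold *Gucy1b1*. No share over all genes was computed for ratios to the other members, nor for the size of the gap between the groups. *Gucy1a1* was in 4 of the 8 pairs, higher in miRNA-26b-/- relative to *Gucy1b1*, *Npr1*, *Npr3* and *Pde5a*, and *Prkg1* was in the other 4, higher relative to *Gucy1b1*, *Npr1*, *Npr3* and *Pde5a*. The ratio of *Gucy1a1* to *Pde5a* was 1.77, 1.64 and 1.68 in K1 to K3 and 1.18, 1.32 and 1.25 in W1 to W3, and that of *Prkg1* to *Pde5a* 0.471, 0.474 and 0.532 and 0.369, 0.336 and 0.253. Pairs that share a gene are not independent of each other.

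**Figure D4:**
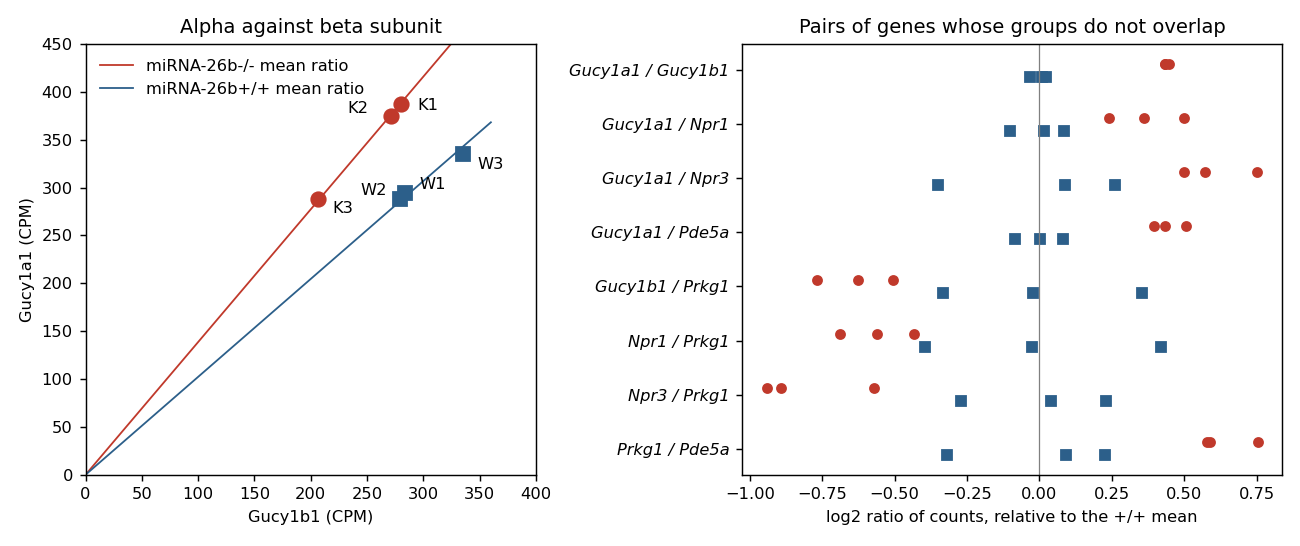
Left: *Gucy1a1* against *Gucy1b1* in CPM, 1 point per library (circles miRNA-26b-/-, squares miRNA-26b+/+), with a line through 0 for the mean ratio of each group (1.39 and 1.02). Right: log2 ratio of counts relative to the miRNA-26b+/+ mean for the 8 pairs whose groups do not overlap, 1 point per library; the points of *Gucy1a1* over *Gucy1b1* lie closest together within each group.

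Of the 8 smooth muscle markers, *Acta2* (14208 to 18314 CPM), *Myh11* (7739 to 12120 CPM) and *Tagln* (5858 to 7928 CPM) were the highest. *Myocd*, also in the sum, was lower in all 3 miRNA-26b-/- libraries (72.9 to 142 CPM against 185 to 211 CPM). Relative to the sum of the 8, all detected, *Gucy1a1* was 0.970%, 1.06% and 0.916% in K1 to K3 and 0.854%, 0.805% and 0.790% in W1 to W3, higher in miRNA-26b-/- without overlap. *Gucy1b1* was 0.702%, 0.764% and 0.657% against 0.822%, 0.782% and 0.790%, lower without overlap. On this scale, on which 10.1% of the 16009 genes tested and not in the sum lay apart, the subunits lay apart in opposite directions, each with the smallest exact permutation p of 0.1 (0.233 after adjustment over the 7 shares computed). *Npr1* also lay apart, lower in miRNA-26b-/- (1.08%, 1.07% and 1.11% against 1.15%, 1.14% and 1.21%), whereas *Prkg1* and *Pde5a* overlapped. Relative to the endothelial sum, the mean of *Npr1* was instead the higher one in miRNA-26b-/- (52.3 ± 29.6% against 28.6 ± 5.08%), with overlapping groups (exact permutation test, two-sided, p = 0.4). The sum of 6 Schwann cell markers was higher in all 3 miRNA-26b-/- libraries (130 to 257 CPM against 27.5 to 81.5 CPM), and its part in these ratios was not tested.

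The receptors for natriuretic peptides had lower mean levels in miRNA-26b-/-, none past the test. *Npr1* (receptor for atrial and brain natriuretic peptide, ENSMUSG00000027931, chr3:90450591-90465866, reverse strand) stood at 430, 378 and 348 CPM in K1 to K3 and 397, 406 and 512 CPM in W1 to W3, with a log2 fold change of -0.19 (SE 0.15, adjusted p = 0.883 by edgeR). *Npr2* (receptor for C-type natriuretic peptide, ENSMUSG00000028469, chr4:43631935-43651244, forward strand) stood at 90.1, 97.5 and 122 CPM and 94.2, 105 and 149 CPM. W3 was the highest library for both, and without W3 the log2 fold change of *Npr2* turned from -0.17 to 0.047. *Npr3* (the clearance receptor, ENSMUSG00000022206, chr15:11839896-11907287, reverse strand) stood at 36.9, 29.9 and 26.1 CPM and 50.5, 32.4 and 42.3 CPM. Its means of 31.0 ± 5.45 CPM and 41.7 ± 9.10 CPM differed by -0.44 on the log2 scale (SE 0.24, adjusted p = 0.790 by edgeR), and K1 lay within the miRNA-26b+/+ range. Per exon length, *Npr1* made up 71.5% to 79.5% of the 3 receptors, *Npr2* 17.1% to 25.8% and *Npr3* 2.73% to 4.96%, with overlapping groups. *Npr1* shares 559 exon bases with the antisense gene *Gm16048* (1781 to 3372 counts), *Npr2* 266 with *Gm12473* (76 to 278 counts) and *Npr3* 321 with *Gm5144* (0 to 96 counts).

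*Prkg1* (ENSMUSG00000052920, chr19:30564489-31765033, reverse strand) had the lowest p of the 9 genes tested. It stood at 103, 108 and 91.2 CPM in K1 to K3 and 92.6, 73.5 and 67.9 CPM in W1 to W3. Only K3 and W1 kept the groups from lying apart, with K3 just below W1. The means were 101 ± 8.76 CPM and 78.0 ± 12.9 CPM (SD, n = 3 each), which differed by 0.37 on the log2 scale (SE 0.18, unadjusted p = 0.0522, adjusted p = 0.769 by edgeR). Over 16 alternatives of scaling, test, filter and libraries the log2 fold change stayed between 0.27 and 0.51, with an unadjusted p below 0.05 in 6 of them and no adjusted p below 0.380. Of 11680 genes compared, 3 had the highest Pearson r with the log2 CPM of *Prkg1* over the 6 libraries. The first were *Csnk2a1* (a casein kinase subunit, r = 0.989) and *Pggt1b* (a prenyltransferase subunit, r = 0.988). The last was *Thoc3* (of the complex that couples transcription to RNA export, r = 0.985). They were picked by rank from many genes over few libraries, and r was not tested.

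*Pde5a* (ENSMUSG00000053965, chr3:122728947-122859374, forward strand), the carrier of the 8mer shown above, stood at 219, 228 and 171 CPM in K1 to K3 and 251, 219 and 268 CPM in W1 to W3. K1 lay beside W2 and K2 above it, and K3 was the lowest library. Its log2 fold change was -0.25 (SE 0.15, adjusted p = 0.829 by edgeR), and it was between -0.34 and -0.14 with any 1 library left out. It shares 55 exon bases with *4930447N08Rik* (56 to 269 counts).

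Around these genes, 76 others of the pathway were listed, and 52 of them were tested. In miRNA-26b-/- 0 were higher and 2 lower at an unadjusted p of 0.05 (3.85%, against 6.47% of all genes tested), and 0 were called after adjustment over all genes, with a median log2 fold change of -0.03. In 8 of the 52 (15.4%) the groups did not overlap in CPM, against 11.5% of all genes tested. Both genes past the unadjusted threshold encode HSP90, the chaperone that binds *Nos3* protein and many other clients. *Hsp90ab1* stood at 1222, 1034 and 1232 CPM in K1 to K3 and 1625, 1657 and 1675 CPM in W1 to W3, with a log2 fold change of -0.51 (SE 0.12, unadjusted p = 0.000834, adjusted p = 0.640 by edgeR). *Hsp90aa1* stood at 165, 185 and 207 CPM and 327, 247 and 262 CPM, with a log2 fold change of -0.59 (SE 0.16, unadjusted p = 0.00186, adjusted p = 0.731). In both genes the miRNA-26b-/- libraries were all below the miRNA-26b+/+ libraries. Of 17 settings of the fit, only DESeq2 called *Hsp90ab1* after adjustment (adjusted p = 0.00169), and 0 called *Hsp90aa1* (0.0575 by DESeq2, its lowest). The highest adjusted p over the 17 settings was 0.983 for *Hsp90ab1* and 0.984 for *Hsp90aa1*.

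By list, 0 of 11 tested genes of nitric oxide supply (arginine, tetrahydrobiopterin and inhibitor metabolism) passed, with a median log2 fold change of -0.03, and the most abundant per exon length was *Ddah2*, which degrades the synthase inhibitor dimethylarginine (56.4 ± 11.2 CPM against 45.6 ± 8.85 CPM). Of 13 synthase regulators only the 2 HSP90 genes passed. The natriuretic peptides themselves were scarcely seen, with *Nppb* at 0 counts in all libraries, *Nppa* at 48 counts in W2 alone and *Nppc* at 8 in K2 and 59 in W3, and *Furin*, a protease that processes them, stood at 124 ± 17.8 CPM against 145 ± 12.7 CPM. Of 9 other guanylyl cyclase subunits, cyclases and their ligands, only *Gucy1a2*, the other alpha subunit, was tested, at 3.11 ± 1.52 CPM against 4.87 ± 2.92 CPM.

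None of 12 other phosphodiesterases and exporters passed (median 0.16), the most abundant being *Pde3a*, which hydrolyses cyclic AMP and is inhibited by cyclic GMP, at 424 ± 37.4 CPM against 433 ± 31.4 CPM. Among 12 targets of the kinase and other effectors none passed. Of their log2 fold changes, 11 of the 12 were below 0, with a median of -0.08 against 0.013 over all genes tested. The share of all genes below 0 was not computed, and genes measured in the same libraries are not independent. The most abundant gene of this list, *Mrvi1*, a substrate of the kinase at the calcium stores, stood at 593 ± 33.5 CPM against 601 ± 85.5 CPM.

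**Figure D5:**
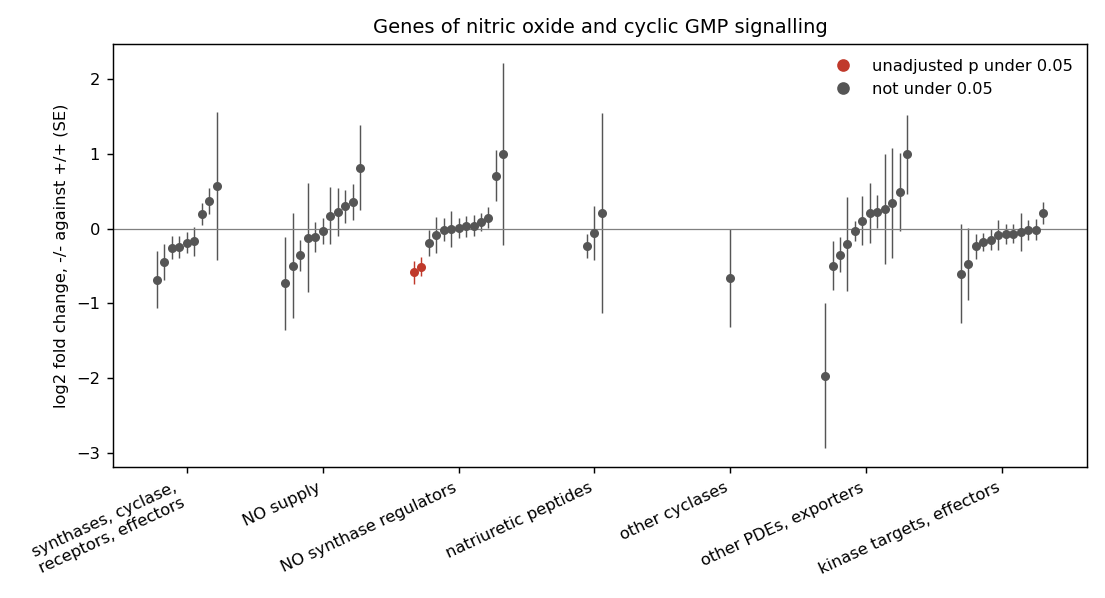
Log2 fold change of miRNA-26b-/- against miRNA-26b+/+ with its SE for the 9 members tested and the 52 tested genes of the 6 pathway lists, 1 point per gene, in order within each list. The 2 HSP90 genes among the synthase regulators, at -0.59 and -0.51, are the points with an unadjusted p under 0.05.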

How the data were processed

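Total RNA of the aortic arch and thoracic aorta was sequenced by the authors from an Illumina TruSeq RNA library per mouse, a kit that does not mark strand. Alignment was done with STAR on GRCm38 (mm10), and the authors deposited raw counts per gene from featureCounts 1.6.4 with, by the file header, GENCODE M21. Strand was ignored, and a read on overlapping genes went to all of them. Only these counts were used. The authors' second table, with log2 CPM, fold changes and p-values of their own comparison, was not used.

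Genes with over 1 CPM in at least 2 libraries (and 2 counts or more in sum) were kept. TMM scaling and edgeR's quasi-likelihood test (edgeR 4.0.16, R 4.3.3, prior count 0.125) were applied, adjusting p-values over all 16017 genes. SE is the log2 fold change divided by the square root of F. RPKM used the deposited exon lengths. Shares and ratios were compared by exact permutation tests of the difference of means (numpy 2.4.6, two-sided). Floors and counting errors leave out amplification, since without molecular identifiers a read is not an independent molecule. The procedure was tested on simulated counts. All members are named, as are pathway genes at an unadjusted p under 0.05 and the most abundant gene per list. The 3 genes of highest Pearson r with *Nos3* and with *Prkg1* are named too. *Nppa*, *Nppb*, *Nppc* and the genes overlapping members were named after their values were seen. The members and lists were chosen with earlier results of these data known. Alternatives were other normalizations, filters, prior counts and tests (DESeq2 1.42.0, limma 3.58.1 voom) and leaving out each library. Seeds and sites were read from RefSeq miRNAs and the GENCODE M21 genome and annotation. Of the 6 libraries, none was left out.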

Additional observations from a re-analysis of the deposited data

How the results depend on the processing

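Counts of members were small under all settings. After adjustment the number of members called was 0, and 0 to 1 with a library left out, the 1 being *Nos3* without K3. At an unadjusted p of 0.05 it was 0, but 1 with library size alone, with robust shrinkage and with filterByExpr, 2 with limma voom, and 0 to 3 with a library left out; *Prkg1* accounts for each of the 1s under the other settings, and *Prkg1* and *Nos3* for the 2. Over all genes the adjusted count was 1, but 57 with DESeq2, 19 with the likelihood ratio test, 3 with limma voom and with robust shrinkage, 0 with the earlier quasi-likelihood method, and 0 to 82 with a library left out. The unadjusted count of 1036 was 686 to 1692 with a library left out, the lowest without W3 and the highest without K3. Of the pathway genes DESeq2 called 1 after adjustment, and 2 to 6 passed the unadjusted threshold with a library left out (4 without K1, 6 without K2). The log2 fold change turned its sign for *Nos2*, to -0.038 without W3 (-0.038 to 2.07 over the libraries left out), and for *Npr2*, to 0.047 without W3 (-0.31 to 0.047). The other 7 members kept their sign in all 16 alternatives. The causes were not tested. No paired analysis was possible because the labels carry no replicate numbers. The leave-one-out values of the cyclase ratio and of the endothelial markers were added after seeing the data. With 3 mice a group, the SE of 0.15 to 0.99 limits which differences could be detected.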
